A study of Mus musculus with 8 samples.

Results

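The 10 genes described here are markers of the response to metals and to oxidative or electrophilic stress in mouse embryonic stem cells: Mt1, Mt2, Hmox1, Nqo1, Gclc, Gclm, Txnrd1, Srxn1, Nfe2l2 and Slc7a11. They were chosen by name, and all 10 were found among the 17727 gene identifiers used, each on a single row. RNA had been sequenced in 8 samples of E14TG2a cells, a stem cell line of the 129/Ola strain, with 2 replicates in each of 4 groups. WT cells are the unedited reference by their label, and E1-KO, E2-KO and E3-KO cells carried CRISPR/Cas9 knockouts that the labels assign to different enhancers. All groups were grown without feeder cells on gelatin in serum with leukaemia inhibitory factor, the GSK3 inhibitor CHIR99021 and the MEK inhibitor PD0325901. The medium of all groups also held 2-mercaptoethanol, a thiol that is itself a reducing agent. The labels give neither the positions of the enhancers nor whether a knockout line is 1 clone, and edited cells with intact enhancers were not analysed here. Each contrast with WT therefore carries whatever else sets the edited cells apart, and the enhancer loss cannot be told apart from it.

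Metallothioneins are small cysteine-rich proteins that bind zinc, copper and cadmium, and their genes are switched on by the metal-sensing transcription factor MTF1 through metal response elements. NRF2, the product of Nfe2l2, is held at a low level because KEAP1 delivers it to the proteasome. When oxidants or electrophiles modify KEAP1, NRF2 accumulates and, paired with a small MAF protein, binds antioxidant response elements beside genes for glutathione synthesis, thioredoxin recycling, quinone reduction and haem breakdown. BACH1 is a repressor that occupies the same elements with small MAF proteins and is best known for silencing Hmox1. A further route to NRF2 breakdown runs through GSK3 and the ubiquitin ligase subunit encoded by Btrc, and GSK3 was inhibited in every group here.

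RefSeq promoter windows on GRCm38.p6 (250 bases before to 50 bases after each annotated start) were found for 8 of the 10 genes. They are shown for 5 genes as examples of windows with matches to the short cores of metal or antioxidant response elements. Whether a match is bound was not tested, and other forms of these elements were not searched. The metal response element core was searched as TGCACNC and TGCGCNC, and the antioxidant response element core as TGACNNNGC, each on both strands with overlapping matches allowed. In the windows of Mt1 (chr8:94178839-94179138, plus strand) and Mt2 (chr8:94172368-94172667, plus strand), capitals mark metal cores.
Mt1: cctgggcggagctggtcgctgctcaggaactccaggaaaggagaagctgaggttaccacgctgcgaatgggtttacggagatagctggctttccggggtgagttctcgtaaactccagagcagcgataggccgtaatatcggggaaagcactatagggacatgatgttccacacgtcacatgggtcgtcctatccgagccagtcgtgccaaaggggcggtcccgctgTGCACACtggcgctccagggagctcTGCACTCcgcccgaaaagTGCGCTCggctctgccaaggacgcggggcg
Mt2: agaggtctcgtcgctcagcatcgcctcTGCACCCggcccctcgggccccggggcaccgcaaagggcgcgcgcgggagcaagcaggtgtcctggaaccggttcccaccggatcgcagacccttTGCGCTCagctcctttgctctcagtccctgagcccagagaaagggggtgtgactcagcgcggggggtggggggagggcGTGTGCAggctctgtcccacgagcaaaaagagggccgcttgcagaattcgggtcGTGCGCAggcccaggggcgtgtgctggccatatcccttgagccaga
In the windows of Srxn1 (chr2:152105274-152105573, plus strand), Gclm (chr3:122245307-122245606, plus strand) and Txnrd1 (chr10:82858956-82859255, plus strand, 1 of 3 annotated starts), capitals mark antioxidant cores.
Srxn1: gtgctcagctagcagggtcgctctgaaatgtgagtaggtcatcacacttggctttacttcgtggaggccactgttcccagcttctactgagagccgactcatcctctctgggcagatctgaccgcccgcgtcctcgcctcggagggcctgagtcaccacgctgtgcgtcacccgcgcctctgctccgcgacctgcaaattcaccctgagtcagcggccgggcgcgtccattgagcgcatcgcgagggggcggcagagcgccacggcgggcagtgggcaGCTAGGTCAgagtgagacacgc
Gclm: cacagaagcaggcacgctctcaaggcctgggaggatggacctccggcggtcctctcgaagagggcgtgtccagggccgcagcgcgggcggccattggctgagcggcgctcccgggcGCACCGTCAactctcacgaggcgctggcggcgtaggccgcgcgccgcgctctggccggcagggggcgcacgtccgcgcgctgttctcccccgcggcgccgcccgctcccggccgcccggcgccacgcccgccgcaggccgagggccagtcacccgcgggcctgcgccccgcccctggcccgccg
Txnrd1: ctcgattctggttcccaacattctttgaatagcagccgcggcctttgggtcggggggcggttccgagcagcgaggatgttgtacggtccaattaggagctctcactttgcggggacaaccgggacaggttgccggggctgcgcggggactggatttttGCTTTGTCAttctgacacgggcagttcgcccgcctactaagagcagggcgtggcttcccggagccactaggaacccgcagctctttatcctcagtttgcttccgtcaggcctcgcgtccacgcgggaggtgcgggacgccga
The Mt1 window held 3 metal cores, at positions -23 to -17, 3 to 9 and 21 to 27, where position 1 is the annotated start. The Mt2 window held 4, at -223 to -217, -128 to -122, -50 to -44 and 5 to 11. At least 1 metal core was present in 25.7% of the 32851 promoter windows, at least 3 in 1.97% and at least 4 in 0.517%. An antioxidant core was found in the windows of Srxn1 (29 to 37), Gclm (-134 to -126), 1 Txnrd1 start (-92 to -84), Nfe2l2 (-240 to -232) and Mt2 (-79 to -71, with the letters TGACTCAGC), against 12.4% of all windows. Gclm also held 3 metal cores and Srxn1 held 1. No match to either core lay in the windows of Nqo1 and Slc7a11, which says only that these letters are not in those 300 bases.

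The deposited values were taken as FPKM, which are scaled by transcript length and depth and so allow levels of different genes to be compared per length. Absolute depth was unknown, and relative depth estimated from the spacing of low values ran from 0.787 to 1.011 of WT replicate 1, with both extremes in E3-KO. Sox2, the gene named in the study's design, was at 131 and 136 FPKM in WT, 58.0 and 60.3 in E1-KO, 114 and 97.5 in E2-KO cells and 97.7 and 91.0 in E3-KO. All 7 stem cell markers on a list were above 1 FPKM in at least 1 sample of every group, and they summed to 2453 to 2525 FPKM in WT, 2245 to 2323 in E1-KO, 2378 to 2536 in E2-KO cells and 1924 to 2217 in E3-KO. Of these 7 markers 3 were called lower in E1-KO and 4 in E3-KO, against 23.0% and 30.8% of all tested genes. Sox2 was 1 of the 3 in E1-KO, and its samples in E2-KO and E3-KO also lay below both WT samples. In E2-KO 2 were called higher and 2 lower, against 14.2% and 21.9% of all tested genes. The 7 fibroblast (feeder) markers summed to 1.14 to 1.57 FPKM in WT and to 2.399 to 3.81 FPKM in the knockouts. In WT 2 of these 7 were at 0 in both samples, and no fibroblast marker reached 1 FPKM there. In each knockout only 1 of the 7, Thy1, reached 1 FPKM. Thy1 was at 0.84 and 0.70 FPKM in WT, 2.54 and 2.69 in E1-KO and 1.23 and 1.82 in E2-KO. In E3-KO it was at 2.54 and 2.85 FPKM. Of the 6 trophoblast markers 4 exceeded 1 FPKM in at least 1 sample of every group, and the list summed to 53.5 to 57.0 FPKM in WT, 37.4 to 43.4 in E1-KO, 34.9 to 38.2 in E2-KO cells and 53.2 to 65.9 in E3-KO. Tfap2c was the largest part, at 32.4 and 34.9 FPKM in WT and 16.2 and 16.3 in E1-KO. Krt8 instead was higher in E1-KO, at 13.8 and 10.3 FPKM against 6.71 and 7.86 in WT. Primitive endoderm markers, 4 of 6 found, summed to 1.55 to 1.65 FPKM in WT, 0.736 to 0.739 in E1-KO, 0.938 to 1.12 in E2-KO cells and 2.44 to 4.69 in E3-KO. Neural markers, 3 of 5 found, summed to 1.803 to 2.43 FPKM in WT, 3.82 to 4.16 in E1-KO, 1.59 to 2.13 in E2-KO cells and 1.04 to 2.002 in E3-KO. Of these, Pax6 was at 0.32 and 0.55 FPKM in WT and 2.50 and 2.28 in E1-KO. Map2 was at 2.11 and 1.25 FPKM in WT and 1.66 and 1.54 in E1-KO. The part of these markers in the results below was not tested. Changes are given as log2 fold changes on the log2(FPKM + 1) scale, where changes of low genes come out too small, with limma-trend p-values adjusted by Benjamini-Hochberg over 11272 tested genes and called under 0.05. Over all tested genes together the median change came to -0.06, -0.08 and -0.15 for E1-KO, E2-KO and E3-KO, and quantile normalization or median-ratio scaling brought these medians to between -0.0081 and 0.0047. The p-values rest on 2 samples per group, which the labels call biological duplicates.

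The metallothioneins were by far the most abundant of the 10 genes per length, and Mt2 fell in E1-KO. Mt2 was at 495 and 434 FPKM in WT, 306 and 298 in E1-KO, 695 and 488 in E2-KO cells and 505 and 472 in E3-KO. Both E1-KO samples were below all 6 others, whereas the E2-KO replicates were far apart and E2-KO and E3-KO overlapped WT. The log2 fold change was -0.62 in E1-KO (standard error 0.16, limma-trend adjusted p = 0.0173). It missed the threshold in all 4 fits that left out 1 sample of the pair (limma-trend adjusted p from 0.0559 to 0.117), with values of -0.71 to -0.52. In E2-KO it was 0.33 (95% interval -0.04 to 0.70, limma-trend adjusted p = 0.145), and over the 15 refits it ran from 0.04 to 0.59. The highest value, without E2-KO replicate 2, rests on replicate 1 at 695 FPKM. In E3-KO the log2 fold change was 0.08 (95% interval -0.29 to 0.45), and -0.08 with quantile normalization. In these bulk samples, fewer cells with a transcript and less of it per cell cannot be told apart.

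Mt1, which lies beside Mt2 on chromosome 8 and encodes the other widely expressed metallothionein, was called in no comparison with WT. Its levels were 454 and 413 FPKM in WT, 398 and 412 in E1-KO, 503 and 509 in E2-KO cells and 485 and 604 in E3-KO. The E1-KO samples lay just under WT and those of E2-KO and E3-KO above it, without an overlap. The log2 fold changes were -0.10 in E1-KO (95% interval -0.39 to 0.19), 0.22 in E2-KO (-0.07 to 0.51, but -0.11 with quantile normalization) and 0.32 in E3-KO (0.03 to 0.61, limma-trend adjusted p = 0.0693). The last value passed with median-ratio scaling (0.49, limma-trend adjusted p = 0.0184) and with scaling without the 50 highest genes (0.38, limma-trend adjusted p = 0.0478). Without E3-KO replicate 1 it was 0.48, which rests on the sample at 604 FPKM. Over the 15 refits it ran from 0.16 to 0.49.

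The ratio of Mt2 to Mt1, which cancels any scaling of a whole sample, was 1.09 and 1.05 in WT and 0.768 and 0.725 in E1-KO. It was 1.38 and 0.959 in E2-KO cells and 1.04 and 0.781 in E3-KO. Both E1-KO ratios were the lowest of the 8, while replicate 2 of E3-KO came close to them. The summed level of both genes was 704 and 710 FPKM in E1-KO against 847 to 1199 FPKM in the other 6 samples. Mt1 and Mt2 are similar in sequence and short, and the values are uncertain where reads could be assigned to either.

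**Figure D1:**
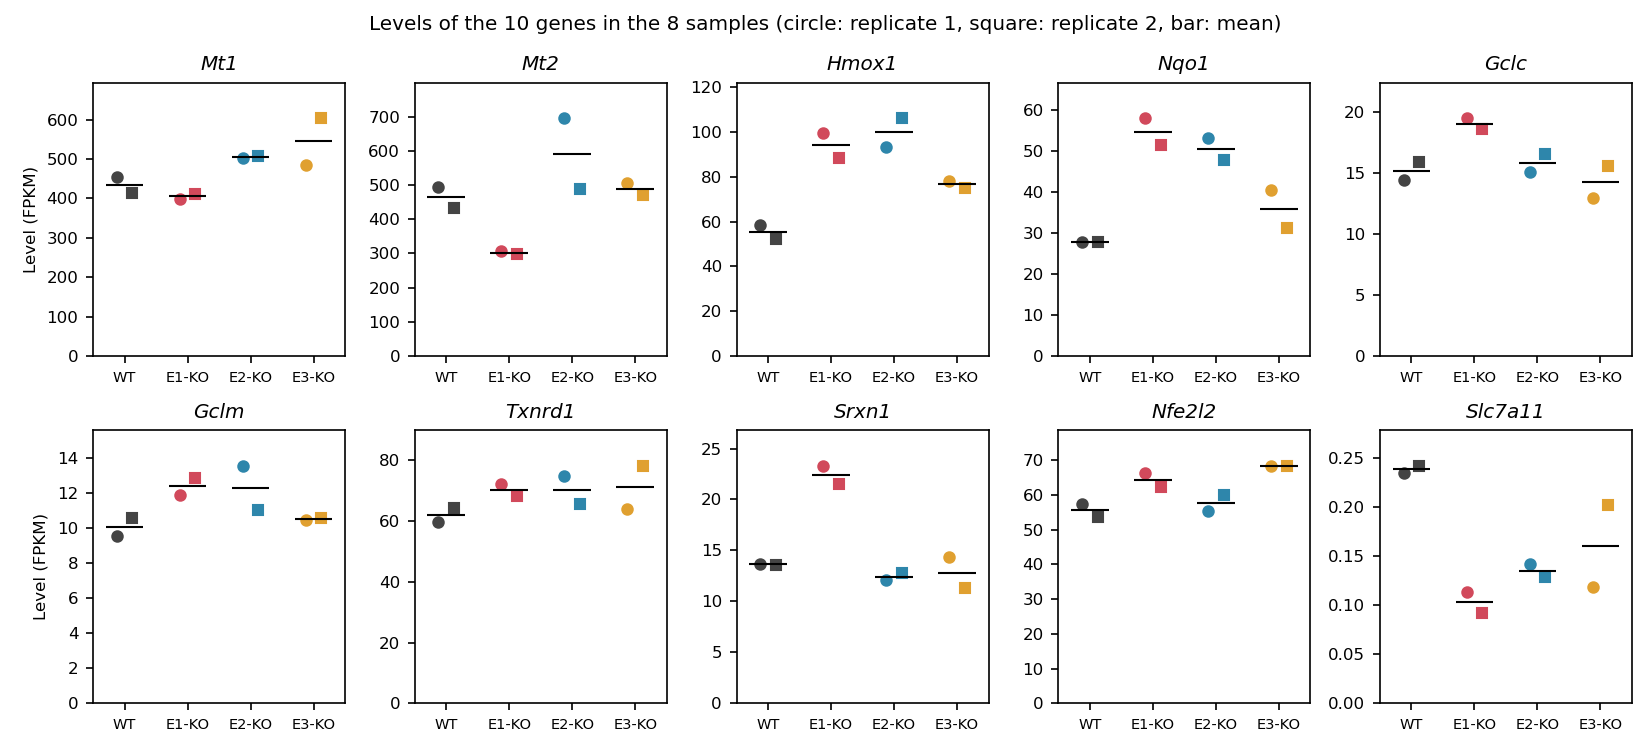
Level of each of the 10 genes (vertical axis, FPKM, from 0) in the 8 samples by group, with circles for replicate 1, squares for replicate 2 and bars for the group mean. Hmox1 and Nqo1 are higher in E1-KO and E2-KO than in WT, Srxn1 is higher in E1-KO, Mt2 is lower in E1-KO, and Slc7a11 stays below 0.25 FPKM throughout.

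Hmox1 rose in all 3 knockouts and Nqo1 in E1-KO and E2-KO, and no other of the 9 tested genes had a larger log2 fold change in any knockout. Hmox1 encodes haem oxygenase 1, which breaks haem down to biliverdin, iron and carbon monoxide. It was at 58.4 and 52.4 FPKM in WT, 99.6 and 88.5 in E1-KO, 93.5 and 106 in E2-KO cells and 78.3 and 75.2 in E3-KO. All 6 knockout samples were above both WT samples, and both E3-KO samples lay between WT and the other lines. The mean rose 1.70-fold in E1-KO, 1.803-fold in E2-KO cells and 1.39-fold in E3-KO. The log2 fold changes were 0.75 (standard error 0.11, limma-trend adjusted p = 0.00122), 0.84 (limma-trend adjusted p = 0.000841) and 0.47 (limma-trend adjusted p = 0.00848). The first and second passed in all 15 refits (3 scalings among them), and the third did not pass without WT replicate 2 (0.39, limma-trend adjusted p = 0.0814).

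Nqo1 encodes a quinone reductase that uses NAD(P)H and is among the most used readouts of NRF2 activity. WT held 27.8 and 27.7 FPKM, E1-KO 58.0 and 51.4, E2-KO 53.2 and 47.7, and E3-KO 40.4 and 31.1. No knockout sample overlapped WT, and the order of the means was E1-KO, E2-KO, E3-KO and WT. Nqo1 rose in E1-KO by a log2 value of 0.95 (1.97-fold in the mean, standard error 0.13, limma-trend adjusted p = 0.0010) and in E2-KO by 0.84 (1.82-fold, limma-trend adjusted p = 0.00197). Only 2.98% of tested genes had a larger log2 fold change in E1-KO, and 4.06% in E2-KO. In E3-KO the change was 0.34 (95% interval 0.04 to 0.64, limma-trend adjusted p = 0.0623). That value passed under each of the 3 other scalings (0.40 to 0.51, limma-trend adjusted p from 0.0105 to 0.0231). It depended on the replicate, at 0.53 without E3-KO replicate 2 and 0.16 without E3-KO replicate 1.

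Srxn1 rose in E1-KO and not detectably in the other lines. It encodes sulfiredoxin, which repairs peroxiredoxins whose active cysteine has been over-oxidised. The values were 13.7 and 13.6 FPKM in WT, 23.3 and 21.6 in E1-KO, 12.1 and 12.8 in E2-KO cells and 14.3 and 11.3 in E3-KO. The E1-KO samples were far above the other 6, which spanned 11.3 to 14.3 FPKM. The E1-KO mean was 1.64-fold that of WT, and the difference of 0.68 on the log2 scale, with a standard error of 0.13, passed in all 15 refits (limma-trend adjusted p = 0.00367). In E2-KO it was -0.13 (95% interval -0.41 to 0.16) and in E3-KO -0.09 (-0.38 to 0.19), and both turned to small positive values with quantile normalization (0.02 and 0.12).

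Txnrd1 encodes the cytosolic thioredoxin reductase, which keeps thioredoxin reduced. It was at 59.7 and 64.2 FPKM in WT, 72.2 and 68.1 in E1-KO, 74.7 and 65.5 in E2-KO cells and 64.0 and 78.2 in E3-KO. The E1-KO and E2-KO samples lay above WT by a small margin, and E3-KO overlapped it. The log2 fold changes were 0.18, 0.17 and 0.19, with 95% intervals of -0.10 to 0.45, -0.10 to 0.45 and -0.08 to 0.46, and none passed the test (limma-trend adjusted p from 0.230 to 0.287). The value of E3-KO passed with median-ratio scaling (0.36, limma-trend adjusted p = 0.0436).

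Gclc and Gclm encode the catalytic and the modifier subunit of glutamate-cysteine ligase, the first enzyme of glutathione synthesis. Gclc was at 14.4 and 15.9 FPKM in WT, 19.5 and 18.6 in E1-KO, 15.1 and 16.5 in E2-KO cells and 13.0 and 15.6 in E3-KO. Only the E1-KO samples left the range of WT without an overlap. The log2 fold change in E1-KO was 0.31 (95% interval 0.04 to 0.58, limma-trend adjusted p = 0.0702). It passed with quantile normalization (0.42, limma-trend adjusted p = 0.0273), with median-ratio scaling (0.38, limma-trend adjusted p = 0.0426) and when the 4 samples were fitted alone (limma-trend adjusted p = 0.0285). In E2-KO and E3-KO the values were 0.06 (-0.22 to 0.33) and -0.09 (-0.36 to 0.19), the latter 0.10 with quantile normalization and 0.07 with median-ratio scaling.

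Gclm was at 9.54 and 10.6 FPKM in WT, 11.9 and 12.9 in E1-KO, 13.6 and 11.02 in E2-KO cells and 10.5 and 10.6 in E3-KO. E1-KO and E2-KO lay above WT, the latter by little in replicate 2. The log2 fold changes were 0.28 in E1-KO (95% interval -0.01 to 0.56, limma-trend adjusted p = 0.118), 0.26 in E2-KO (-0.03 to 0.55, limma-trend adjusted p = 0.142) and 0.06 in E3-KO (-0.23 to 0.35). The first and second passed with quantile normalization (0.42 and 0.41, limma-trend adjusted p = 0.0271 and 0.0313). The ratio of Gclm to Gclc was 0.610 to 0.898 over the 8 samples, and 0.662 and 0.665 in WT.

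Slc7a11 encodes the transport subunit of the cystine and glutamate exchanger xCT, which brings in the cystine needed for glutathione. It was nearly silent, at 0.235 and 0.242 FPKM in WT, 0.114 and 0.0917 in E1-KO, 0.142 and 0.128 in E2-KO cells and 0.119 and 0.202 in E3-KO. Every knockout sample lay under the pair of WT samples. It was the only one of the 10 genes under the filter of a mean of 1 FPKM and was not tested with the others. With all genes above 0 in the fit, its log2 fold changes were -0.17, -0.13 and -0.095 on a scale that compresses such low values (limma-trend adjusted p = 0.0547, 0.126 and 0.208).

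Nfe2l2 itself was at 57.4 and 53.7 FPKM in WT, 66.4 and 62.4 in E1-KO, 55.4 and 60.1 in E2-KO cells and 68.4 and 68.2 in E3-KO. E1-KO and E3-KO lay above WT, while E2-KO overlapped it. It rose in E3-KO by 0.29 on the log2 scale (standard error 0.09, limma-trend adjusted p = 0.0307). This call was lost without the trend in the variance (limma adjusted p = 0.0535) and in all 4 fits that left out 1 sample (limma-trend adjusted p from 0.0671 to 0.191). The values in E1-KO and E2-KO were 0.21 (95% interval -0.0028 to 0.42, limma-trend adjusted p = 0.108) and 0.05 (-0.16 to 0.27). With the E1-KO and WT samples fitted alone the former passed (limma-trend adjusted p = 0.0464). NRF2 is regulated mainly through the stability of its protein, which RNA levels do not show.

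By count, 4 of the 9 tested genes were called between E1-KO and WT, with Hmox1, Nqo1 and Srxn1 higher and Mt2 lower. Of all tested genes 38.0% were called in that comparison (15.0% higher and 23.0% lower), so the share of called members was near the background. In E2-KO 2 of 9 were called (Hmox1 and Nqo1, both higher), against 36.1% of all genes and 14.2% called higher. In E3-KO 2 of 9 were called (Hmox1 and Nfe2l2, both higher), against 44.7% and 13.9% called higher. For these 9 the median change was 0.28, 0.22 and 0.19 in the 3 lines, against -0.06, -0.08 and -0.15 for all tested genes. The members' samples did not overlap those of WT for 10 of 10 genes in E1-KO (7 higher and 3 lower), where 77.0% of tested genes did not overlap either (33.0% higher and 44.0% lower). Slc7a11, which was not tested, is among these 10. The samples did not overlap for 7 of 10 genes in E2-KO (71.8% of tested genes) and for 5 of 10 in E3-KO (74.2%). All 3 comparisons share the WT samples.

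**Figure D2:**
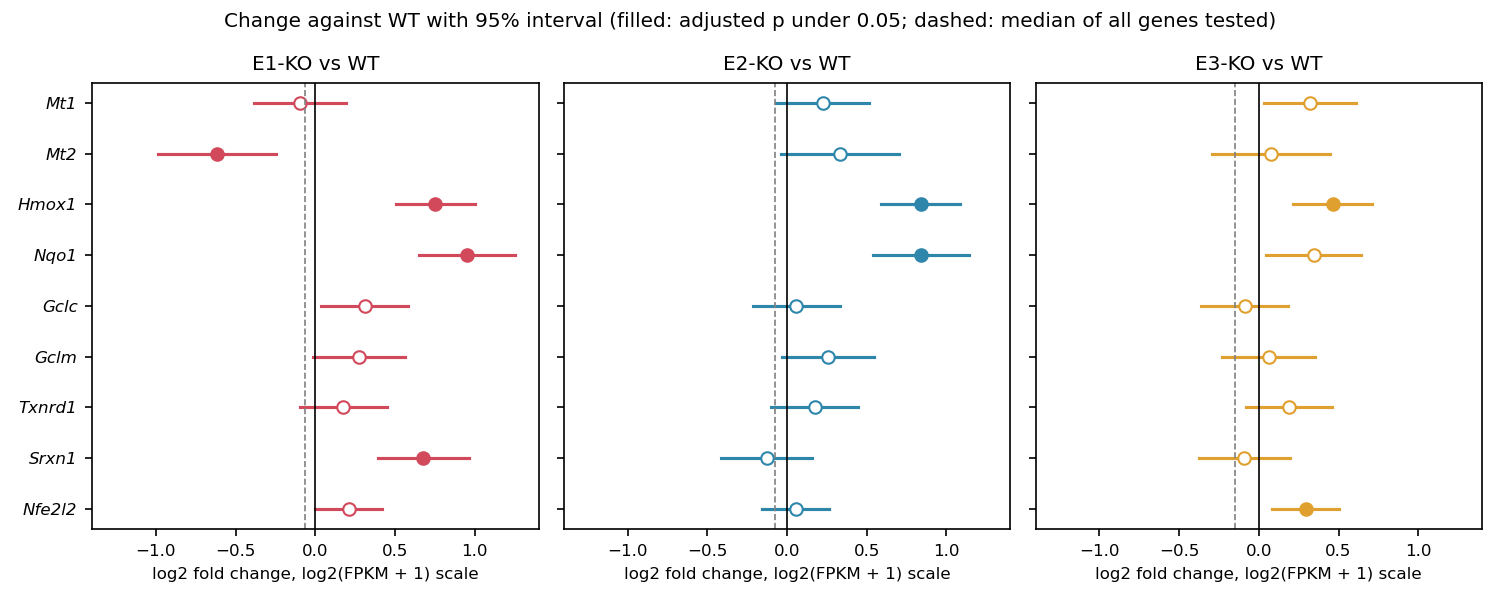
Log2 fold change against WT on the log2(FPKM + 1) scale (horizontal axis) of the 9 tested genes in each knockout, with 95% intervals from the fit. Filled points passed an adjusted p of 0.05, and the dashed line is the median of all tested genes, at -0.06, -0.08 and -0.15. Hmox1 is filled in all 3 knockouts and Nqo1 in E1-KO and E2-KO.

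The knockouts were then compared directly. E2-KO and E1-KO differed in 2 of the 9 genes, in a comparison where 0.834% of all genes were called (0.488% higher and 0.346% lower in E2-KO). Mt2 was higher in E2-KO by 0.95 (standard error 0.16, limma-trend adjusted p = 0.0440) and Srxn1 was lower by 0.80 on the log2 scale (-0.80, standard error 0.13, limma-trend adjusted p = 0.0334). The 2 samples of each line did not overlap those of the other for either gene. Both calls were lost in 7 of 15 refits. For Mt2 the lost fits gave limma-trend adjusted p-values from 0.0517 to 0.260, and 0.0514 by limma without trend, and the difference was 0.69 without E2-KO replicate 1 (limma-trend adjusted p = 0.0888). For Srxn1 they gave 0.0551 to 0.251.

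E3-KO and E1-KO differed in 5 of the 9 genes, against 25.8% of all genes (9.41% higher and 16.4% lower in E3-KO). Mt1 (0.42, limma-trend adjusted p = 0.0414) and Mt2 (0.69, limma-trend adjusted p = 0.0145) were higher in E3-KO. Nqo1 (-0.61, limma-trend adjusted p = 0.0104), Gclc (-0.40, limma-trend adjusted p = 0.0394) and Srxn1 (-0.77, limma-trend adjusted p = 0.00293) were lower. The Srxn1 call passed in all 15 refits, that of Nqo1 in all but the fit without E1-KO replicate 1 (-0.52, limma-trend adjusted p = 0.0911). Gclc did not pass under any of the 3 other scalings (-0.33 to -0.30, limma-trend adjusted p from 0.0950 to 0.115), and was lost in 8 of 15 refits, also without E1-KO replicate 1, E1-KO replicate 2 or E3-KO replicate 1 (-0.43 to -0.28, limma-trend adjusted p from 0.122 to 0.186). Mt1 was lost in 7 of 15, among them quantile normalization (0.44, limma-trend adjusted p = 0.0674), without E1-KO replicate 1 or E1-KO replicate 2 (0.39 and 0.44, limma-trend adjusted p = 0.197 and 0.146) and without E3-KO replicate 2 (0.26, limma-trend adjusted p = 0.141). Mt2 did not pass in 3 of the 4 fits that left out 1 sample (limma-trend adjusted p from 0.0633 to 0.0851).

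Between E3-KO and E2-KO 1 of the 9 genes was called, against 15.6% of all genes (10.1% lower in E3-KO). Nqo1 was lower in E3-KO by 0.50 on the log2 scale (-0.50, limma-trend adjusted p = 0.0368), a call lost in 9 of 15 refits (limma-trend adjusted p from 0.0514 to 0.148), including all 3 other scalings. Without E3-KO replicate 2 the Nqo1 difference was -0.31 (limma-trend adjusted p = 0.148). The Hmox1 difference did not pass (-0.37, 95% interval -0.62 to -0.13, limma-trend adjusted p = 0.0502). For Hmox1 the means ran from E2-KO through E1-KO and E3-KO to WT, and the E2-KO and E1-KO samples overlapped (0.09, 95% interval -0.16 to 0.33). The Nqo1 samples of E1-KO and E2-KO overlapped as well (-0.11, 95% interval -0.41 to 0.19).

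The genes of the group did not share 1 pattern over the 8 samples. Hmox1 and Nqo1 were the most alike pair (Pearson r 0.91 and Spearman rho 0.86 of log2(FPKM + 1)), followed by Nqo1 and Gclm (r 0.81, rho 0.81). The metallothioneins ran against Srxn1, with r of -0.87 (rho -0.48) for Mt2 and -0.78 (rho -0.88) for Mt1. Mt2 also ran against Gclc (r -0.77, rho -0.83), and Mt1 did so less (r -0.49, rho -0.48). Mt1 and Mt2 had an r of 0.63. The 2 E1-KO samples had the highest Srxn1 and the lowest Mt1 and Mt2 levels of the 8. The correlations describe 8 samples that fall into 4 groups of 2, and the 2 samples of a group share their cell line. Among 8387 other genes averaging 5 FPKM or more, the gene most like Nqo1 was Msantd3 (r 0.999), which had means of 19.4 FPKM in WT, 32.1 in E1-KO, 29.99 in E2-KO cells and 23.3 in E3-KO. It was not alone, since 39 of these genes had an r of at least 0.95 with Nqo1. With Hmox1 29 did and with Mt1 0. The gene most like Srxn1 was Des (0.97), that most like Gclc was Tent2 (0.99) and that most like Gclm was Rtf2 (0.98). Mt1 was most like Vangl1 (0.95), Mt2 most like Epp13 (0.96), Txnrd1 most like Cdk11b (0.96) and Nfe2l2 most like Ndc1 (0.96). For Hmox1 it was ENSMUSG00000062417 (0.99), an identifier without a symbol in the name table.

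Genes that control NRF2 and the metal response were read from lists of 88 other pathway genes, of which 81 were tested. BACH1's gene had the largest log2 fold change in size of the 12 NRF2 control genes in E1-KO and E2-KO, and in E3-KO it came after Nfe2l3. Bach1 was at 21.3 and 20.8 FPKM in WT, 8.33 and 8.67 in E1-KO, 7.46 and 9.61 in E2-KO cells and 11.9 and 11.8 in E3-KO. All 6 knockout samples were far below WT, and E3-KO lay between WT and the other lines, as it did for Hmox1 in the opposite direction. The log2 fold changes of Bach1 were -1.21, -1.22 and -0.78 (limma-trend adjusted p = 0.000304, 0.000357 and 0.00162), and they passed in all 15 refits of each comparison. Whether the level of Bach1 bears on Hmox1 or Nqo1 was not tested.

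**Figure D3:**
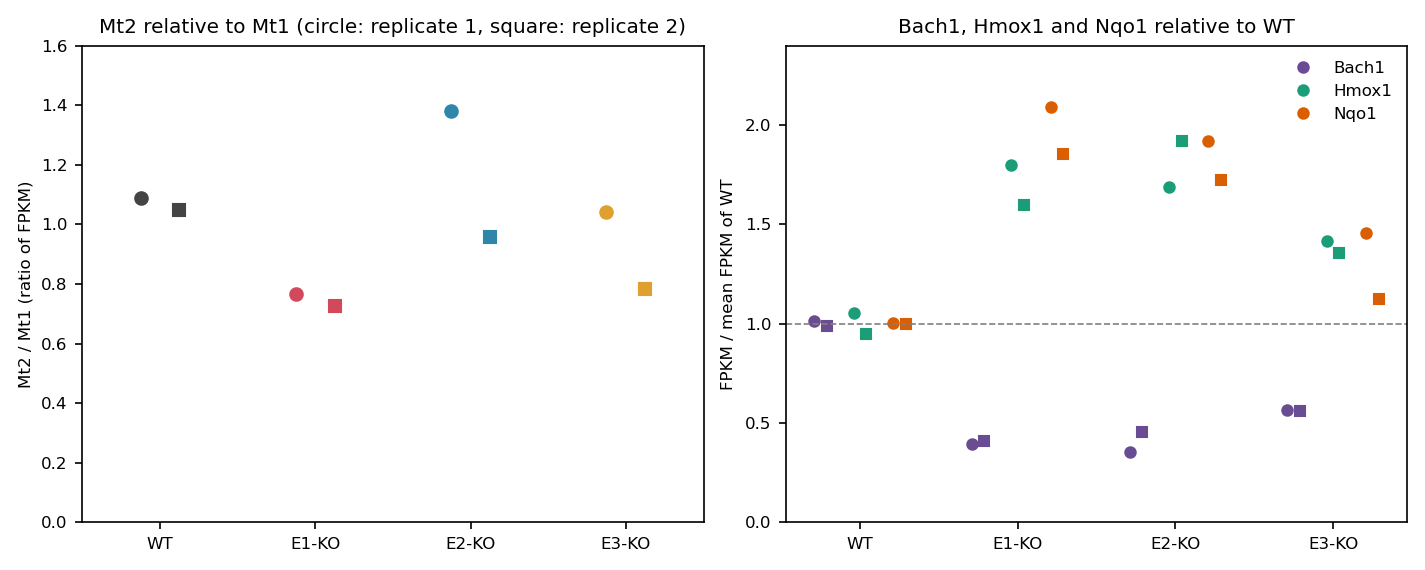
Left, ratio of Mt2 to Mt1 in FPKM for each sample, lowest in the E1-KO samples at 0.768 and 0.725. Right, levels of Bach1, Hmox1 and Nqo1 in each sample relative to the WT mean (dashed line at 1), with circles for replicate 1 and squares for replicate 2. Bach1 lies at 0.355 to 0.457 in E1-KO and E2-KO and at 0.562 to 0.566 in E3-KO, where Hmox1 and Nqo1 are nearest to WT among the knockouts.

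Of the NRF2 control genes 4 of 12 fell in E1-KO, 3 in E2-KO cells and 4 in E3-KO. Of all tested genes 23.0%, 21.9% and 30.8% were called lower in these comparisons and 15.0%, 14.2% and 13.9% higher, the background for each list, and the NRF2 control shares were near it. The list medians were -0.20, -0.30 and -0.13. Btrc, the ubiquitin ligase subunit of the GSK3 route, went from 8.52 and 8.70 FPKM in WT to 5.52 and 5.39 in E1-KO, 5.91 and 5.61 in E2-KO cells and 6.68 and 5.93 in E3-KO (log2 fold changes -0.57, -0.51 and -0.40). The call in E3-KO was lost with quantile normalization (limma-trend adjusted p = 0.271) and with median-ratio scaling (limma-trend adjusted p = 0.113). Nfe2l3, which encodes a relative of NRF2, fell in E3-KO by 0.90 on the log2 scale (-0.90, limma-trend adjusted p = 0.0199), where 1 replicate was at 1.58 and the other at 0.37 FPKM, and it lies on chromosome 6, whose 535 tested genes had a median of -0.62 in E3-KO. Its identifier had 3 rows, and with the rows summed the E2-KO value changed sign (0.10 against -0.47, neither called). Keap1 was at 10.3 and 10.8 FPKM in WT and between 11.2 and 13.9 FPKM in the knockouts, with log2 fold changes of 0.22, 0.25 and 0.12 that did not pass (limma-trend adjusted p = 0.169, 0.127 and 0.436). All 3 passed with quantile normalization (0.34 to 0.40, limma-trend adjusted p from 0.0248 to 0.0383).

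In the metal handling list 10 of 12 genes were tested, and 1 rose and 1 fell in E1-KO, 1 fell in E2-KO cells and 2 fell in E3-KO, with list medians of -0.20, -0.08 and -0.22. Mtf1 was at 10.1 FPKM in both WT samples, 8.10 and 9.43 in E1-KO, 9.75 and 10.1 in E2-KO cells and 8.73 and 7.11 in E3-KO. It was called in no comparison with WT (log2 fold changes -0.19, -0.03 and -0.32, limma-trend adjusted p = 0.278, 0.885 and 0.0715). The E2-KO value turned positive with quantile normalization (0.12) and median-ratio scaling (0.05), and the E3-KO value passed without E3-KO replicate 1 (-0.46, limma-trend adjusted p = 0.0330). Mt3, a metallothionein known from brain, was low but rose in E1-KO, from 1.26 and 0.55 FPKM in WT to 4.82 and 3.33 (log2 fold change 1.42, limma-trend adjusted p = 0.00413), opposite to Mt2. The zinc transporters of the secretory pathway Slc30a7 and Slc30a5 fell in E3-KO (-0.68 and -0.60, limma-trend adjusted p = 0.00375 and 0.0131). In E2-KO Slc30a7 also fell (-0.53, limma-trend adjusted p = 0.0142), and Slc30a5 did not pass (-0.37, limma-trend adjusted p = 0.0917). Their E1-KO values of -0.38 and -0.37 did not pass (limma-trend adjusted p = 0.0505 and 0.0930).

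In the glutathione list more genes were called lower than higher in each knockout. Of its 17 tested genes 10 fell and 2 rose in E1-KO, 8 fell and 3 rose in E2-KO, and 8 fell and 3 rose in E3-KO, with medians of -0.52, -0.38 and -0.45. Gpx1, a glutathione peroxidase, went against the list, from 177 and 169 FPKM in WT to 312 and 257 in E1-KO, 356 and 364 in E2-KO cells and 498 and 423 in E3-KO (log2 fold changes 0.71, 1.05 and 1.402). Abcc1, an exporter of glutathione conjugates, fell in all 3 (-0.59, -0.60 and -1.27). Gsto1, an omega-class glutathione transferase, fell in E1-KO (-1.01, limma-trend adjusted p = 0.0151) and rose in E3-KO (1.34, limma-trend adjusted p = 0.00338), where its replicates were at 120 and 59.3 FPKM against 31.5 and 34.0 in WT.

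**Figure D4:**
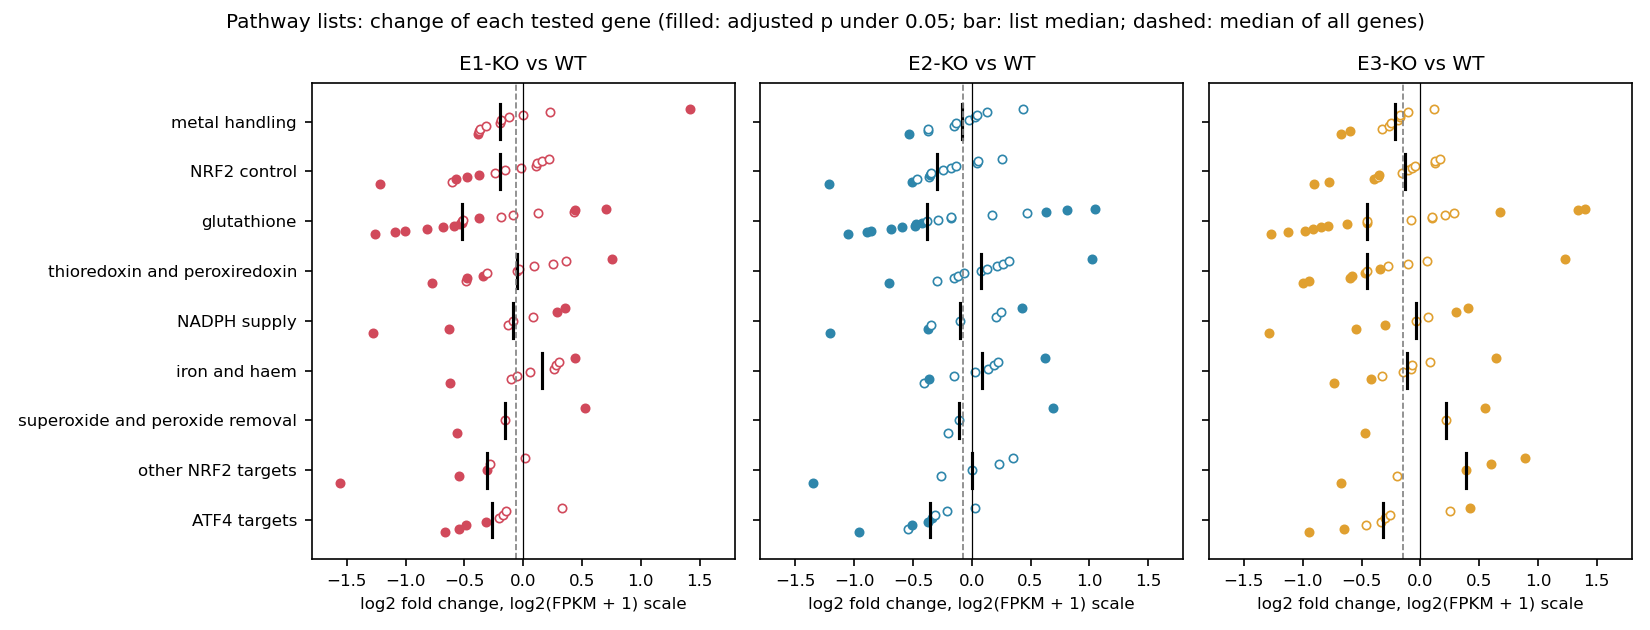
Log2 fold change against WT on the log2(FPKM + 1) scale (horizontal axis) of each tested gene in 9 pathway lists, by knockout. Filled points passed an adjusted p of 0.05, black bars are list medians and the dashed line is the median of all tested genes. The glutathione medians lie at -0.52, -0.38 and -0.45, and the thioredoxin and peroxiredoxin median at -0.45 in E3-KO.

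Among the 11 thioredoxin and peroxiredoxin genes, 1 rose and 3 fell in E1-KO, 1 rose and 1 fell in E2-KO cells and 1 rose and 6 fell in E3-KO, where 30.8% of all tested genes fell. Of the 6, Txnrd3 (-0.58), chosen after its value was seen, lies on chromosome 6 with its median of -0.62. The riser was Prdx6, a peroxiredoxin that acts on phospholipid peroxides, from 104 and 110 FPKM in WT to 180 and 183 in E1-KO, 186 and 259 in E2-KO cells and 291 and 219 in E3-KO (log2 fold changes 0.75, 1.03 and 1.23). Prdx4, the peroxiredoxin of the endoplasmic reticulum, fell in E1-KO (-0.78) and E3-KO (-0.95). Txnip, which binds and inhibits thioredoxin, fell in E2-KO (-0.70) and E3-KO (-0.9995).

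The ferritin genes were called in opposite directions in E3-KO. Fth1, the ferritin heavy chain, was at 283 and 312 FPKM in WT, 372 and 364 in E1-KO, 511 and 409 in E2-KO cells and 468 and 461 in E3-KO. It rose in E2-KO (0.62, limma-trend adjusted p = 0.00621) and E3-KO (0.64, limma-trend adjusted p = 0.00386), whereas the E1-KO value was 0.31 (limma-trend adjusted p = 0.0867, and 0.0355 with median-ratio scaling). Ftl1, the light chain, fell in E1-KO (-0.63) and E3-KO (-0.73), and its E2-KO value was -0.41 (limma-trend adjusted p = 0.0614). Ferritin genes have many processed copies, so these values are uncertain where reads are shared. Hmox2, the constitutive haem oxygenase, rose in E1-KO by 0.44 (limma-trend adjusted p = 0.0240). Over the 8 tested iron and haem genes, 1 rose and 1 fell in E1-KO and E2-KO each, and 1 rose and 2 fell in E3-KO.

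Of the genes that remove superoxide and peroxide, 3 of 4 were tested. Sod1, the cytosolic superoxide dismutase, rose in all 3 knockouts, from 382 and 393 FPKM in WT to between 557 and 695 FPKM (log2 fold changes 0.53, 0.69 and 0.55). Sod2, the mitochondrial form, fell in E1-KO (-0.56) and catalase, Cat, in E3-KO (-0.47). The Cat call was lost with median-ratio scaling (limma-trend adjusted p = 0.0517). Among the 7 genes of NADPH supply, Idh2, the mitochondrial isocitrate dehydrogenase, fell in all 3 (-1.28, -1.21 and -1.29), from 126 and 135 FPKM in WT to between 51.4 and 58.4 FPKM, and Idh1, the cytosolic form, rose in all 3 (0.36, 0.42 and 0.40). Taldo1, transaldolase of the pentose phosphate pathway, fell in E1-KO (-0.64) and E3-KO (-0.55). The list held 2 risers and 2 fallers in E1-KO, 1 and 2 in E2-KO cells and 2 and 3 in E3-KO.

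Of 5 other tested NRF2 targets 3 fell in E1-KO and 1 in E2-KO, while 3 rose and 1 fell in E3-KO, with list medians of -0.31, 0.000805 and 0.39. Ephx1, the microsomal epoxide hydrolase, fell in E1-KO and E2-KO (-1.56 and -1.35), from 26.7 and 25.8 FPKM in WT to between 7.83 and 11.1 FPKM. In E3-KO Ephx1 was at 25.6 and 20.2 FPKM (-0.20, limma-trend adjusted p = 0.317). Cbr3, a carbonyl reductase, fell in E1-KO (-0.55, limma-trend adjusted p = 0.0263, but 0.0686 with quantile normalization) and rose in E3-KO (0.89, limma-trend adjusted p = 0.00248). Abcc4, an exporter of organic anions, fell in E3-KO (-0.67) and in E1-KO (-0.31, limma-trend adjusted p = 0.0477), where the call was lost in 9 of 15 refits. Slc7a11 is also a target of the stress factor ATF4. Of a list of 8 genes, Atf4 itself and ATF4 targets, 4 fell in E1-KO, 4 in E2-KO cells and 2 in E3-KO, with 1 rising in E3-KO. Asns, asparagine synthetase, fell in E1-KO (-0.54) and in E3-KO (-0.95), where it lies on chromosome 6 with its lower median given above. Psat1, an enzyme of serine synthesis, fell in all 3 (-0.32, -0.37 and -0.65), and Ddit4, an inhibitor of mTORC1 signalling, in E1-KO (-0.66) and E2-KO (-0.96).

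Over the 81 tested pathway genes together, 8 rose and 29 fell in E1-KO, 7 rose and 21 fell in E2-KO cells and 12 rose and 29 fell in E3-KO, with medians of -0.19, -0.15 and -0.25. The shares called in either direction were 45.7%, 34.6% and 50.6%, against 38.0%, 36.1% and 44.7% of all tested genes. By direction, 15.0%, 14.2% and 13.9% of all tested genes were called higher and 23.0%, 21.9% and 30.8% lower. Whether the shares of the pathway genes differ from these was not tested. Of the 57 calls against WT of the 27 pathway genes named from the lists, 29 were lost in at least 1 fit that left out a single sample. With any of the 4 samples left out, the calls in E1-KO were lost for Gsto1, Idh1, Sod1, Cbr3, Abcc4 and Psat1 (limma-trend adjusted p from 0.05001 to 0.319). Without E1-KO replicate 2, WT replicate 1 or WT replicate 2, the calls in E1-KO were lost for Abcc1, Hmox2 and Ddit4 (limma-trend adjusted p from 0.0617 to 0.167). Without E1-KO replicate 1, E1-KO replicate 2 or WT replicate 1, the call in E1-KO was lost for Prdx6 (limma-trend adjusted p from 0.0532 to 0.0611). Without E1-KO replicate 1, WT replicate 1 or WT replicate 2, the calls in E1-KO were lost for Prdx4 and Sod2 (limma-trend adjusted p from 0.0504 to 0.0961). Without E1-KO replicate 1 or WT replicate 2, the calls in E1-KO were lost for Taldo1, Ftl1 and Asns (limma-trend adjusted p from 0.0528 to 0.102). Without E2-KO replicate 1, WT replicate 1 or WT replicate 2, the call in E2-KO was lost for Slc30a7 (limma-trend adjusted p from 0.0561 to 0.0783). Without WT replicate 1 or WT replicate 2, the calls in E2-KO were lost for Btrc, Idh1 and Psat1 (limma-trend adjusted p from 0.0595 to 0.104). Without E2-KO replicate 2, WT replicate 1 or WT replicate 2, the call in E2-KO was lost for Abcc1 (limma-trend adjusted p from 0.0656 to 0.0769). Without WT replicate 1, the calls in E2-KO were lost for Txnip and Fth1 (limma-trend adjusted p from 0.0543 to 0.0595). Without E3-KO replicate 2 or WT replicate 2, the call in E3-KO was lost for Slc30a5 (limma-trend adjusted p from 0.0780 to 0.105). Without E3-KO replicate 2, WT replicate 1 or WT replicate 2, the calls in E3-KO were lost for Nfe2l3 and Btrc (limma-trend adjusted p from 0.0758 to 0.120). Without WT replicate 2, the call in E3-KO was lost for Taldo1 (limma-trend adjusted p = 0.0866). Without WT replicate 1 or WT replicate 2, the call in E3-KO was lost for Idh1 (limma-trend adjusted p from 0.0654 to 0.0676). Without WT replicate 1, the calls in E3-KO were lost for Sod1 and Cat (limma-trend adjusted p from 0.0560 to 0.0649).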

How the data were processed

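Total RNA of 8 samples (4 groups of 2) was sequenced in paired reads of 150 bases. The authors deposited 1 table of values per sample, taken here as FPKM because the submitters' processing notes name Cufflinks 2.2.1, beside Trimmomatic 0.36, TopHat2 2.0.12 and the mm9 build. No label states the unit, the annotation, whether counting used strand, or any scaling between samples, and depth in reads is unknown. Of 17812 identifiers, 85 with several rows that could not be told apart were left out, and 17727 were used. Log2(FPKM + 1) values of the 11272 genes averaging 1 FPKM or more were fitted over all 8 samples (4 residual degrees of freedom) with limma 3.58.1 with trend in R 4.3.3. Two-sided p-values were adjusted by Benjamini-Hochberg over all tested genes and called under 0.05. The script was tested on simulated data. The 10 genes were given by name, and the pathway lists, markers and tests were chosen with earlier results of these data known. Of each list, up to 3 genes called against WT with the largest absolute log2 fold change were named, with Keap1 and Mtf1 always. The most alike gene was that of highest Pearson r averaging 5 FPKM or more. Each comparison was refitted under 15 alternatives: other scalings, filters and pseudocount, other handling of repeated identifiers, no trend, a replicate block, the pair of groups alone, and each sample left out. Promoter windows are from RefSeq (GRCm38.p6), and no coordinate was carried over to mm9.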

Additional observations from a re-analysis of the deposited data

Results flagged for a closer look

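The 9 tested genes were compared directly between knockouts in 27 comparisons, and 8 differences passed the limma-trend test at an adjusted p under 0.05. Between E2-KO and E1-KO 22.2% of the 9 genes were called, against 0.834% of all tested genes. Between E3-KO and E1-KO it was 55.6% against 25.8%. Between E3-KO and E2-KO it was 11.1%, below the 15.6% of all tested genes. Whether these shares differ was not tested. Each call is a difference between 2 lines, in which the enhancer loss cannot be told apart from what else differs between them. On the log2(FPKM + 1) scale Mt2 exceeded its E1-KO level by 0.95 in E2-KO and by 0.69 in E3-KO. Mt1 was higher in E3-KO than in E1-KO by 0.42. Srxn1 differed by -0.80 between E2-KO and E1-KO and by -0.77 between E3-KO and E1-KO. Nqo1 differed by -0.61 between E3-KO and E1-KO and by -0.50 between E3-KO and E2-KO. Gclc differed by -0.40 between E3-KO and E1-KO. Comparisons with E1-KO share its 2 samples, and of these 8 only that of Srxn1 between E3-KO and E1-KO passed in all 15 refits.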

How the results depend on the processing

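The labels' replicate numbers did not pair samples: same-numbered samples deviated from their group means with a mean correlation of 0.0050 (-0.042 to 0.090 over 6 pairs of groups). A replicate block took the members called between E2-KO and E1-KO from 2 to 0 (3 at an unadjusted p under 0.05, limma-trend) and all genes called there to 31, took the Nqo1 value of E3-KO past the threshold, and ended the Mt1 call between E3-KO and E1-KO. Over the 54 results of the 9 tested genes, 711 of 810 refits kept direction and side of the threshold, 52 lost and 19 gained a call and 28 changed sign. For the 87 results of other named genes 1174 of 1293 kept both, 86 lost and 23 gained a call and 10 changed sign. When a sample was left out, the lone sample of its group was assumed to vary like the other groups. Members called then numbered 3 in every fit for E1-KO against WT, 2 to 3 for E2-KO, 0 to 2 for E3-KO, 0 to 1 for E2-KO against E1-KO, 1 to 4 for E3-KO against E1-KO and 0 to 1 for E3-KO against E2-KO. All genes called numbered 2041 to 2575, 1871 to 3715, 2829 to 4557, 2 to 58, 1306 to 2608 and 974 to 1546 in the same order. With a change of 1 or more on the log2 scale required, limma-trend called 0 members in all 6 comparisons (5, 2, 4, 3, 6 and 3 at an unadjusted p under 0.05) and 707, 653, 934, 41, 560 and 267 of all genes. At an adjusted p under 0.01 it called 2248, 2090, 3057, 0, 1411 and 575 of all genes, and 1 member in E3-KO against WT, 0 in E2-KO against E1-KO (3 unadjusted), 1 in E3-KO against E1-KO and 0 in E3-KO against E2-KO (3 unadjusted). For E3-KO against WT the members called were 5 with median-ratio scaling, 4 with scaling without the 50 highest genes and 1 with limma without trend. Between E2-KO and E1-KO they were 1 without trend, and 0 without a filter or with the pair alone (3 unadjusted), where all genes called were 1 and 1, and 58 with a mean of at least 5 FPKM. Between E3-KO and E1-KO they were 3 with quantile normalization, without a filter and with the pair alone. Between E3-KO and E2-KO they were 0 with each of the 3 other scalings, without trend, without a filter and with the pair alone (2 to 3 unadjusted), and 2 with a mean of at least 5 FPKM or with repeated identifiers left out, while the pair alone called 671 of all genes. The higher and lower calls of all genes were 1695 and 2589 in E1-KO against WT, but 2043 and 2133 with quantile normalization and 2061 and 2169 with median-ratio scaling. They were 1596 and 2474 in E2-KO against WT but 2003 and 1966 with median-ratio scaling. In E3-KO against WT they were 1568 and 3470, but 2274 and 2459 with quantile normalization and 2358 and 2369 with median-ratio scaling. Between E3-KO and E1-KO they were 1061 and 1849, but 1391 and 1405, 1450 and 1296, and 1297 and 1370 with the 3 other scalings. Between E3-KO and E2-KO they were 618 and 1135, but 843 and 836, 878 and 817, and 899 and 708. Where a scaling or filter changed a call the cause was not tested. No value that changed sign passed the threshold in either fit. With quantile normalization the values turned to -0.11 for Mt1 (E2-KO vs WT), 0.020 for Srxn1 (E2-KO vs WT), 0.12 for Mtf1 (E2-KO vs WT), -0.079 for Mt2 (E3-KO vs WT), 0.10 for Gclc (E3-KO vs WT) and 0.12 for Srxn1 (E3-KO vs WT). With the rows of an identifier summed the values turned to 0.10 for Nfe2l3 (E2-KO vs WT). With scaling without the 50 highest genes the values turned to -0.047 for Cbr3 (E2-KO vs WT). With a pseudocount of 0.1 the values turned to -0.00032 for Cbr3 (E2-KO vs WT). With median-ratio scaling the values turned to 0.047 for Mtf1 (E2-KO vs WT), 0.075 for Gclc (E3-KO vs WT), 0.069 for Srxn1 (E3-KO vs WT) and 0.0087 for Txnrd1 (E2-KO vs E1-KO). With each sample left out in turn, the log2 fold changes that crossed 0 ran in E2-KO vs WT from -0.011 to 0.12 for Gclc, from -0.0025 to 0.11 for Nfe2l2 and from -0.17 to 0.17 for Cbr3. They ran in E3-KO vs WT from -0.019 to 0.17 for Mt2, from -0.21 to 0.035 for Gclc, from -0.0071 to 0.13 for Gclm, from -0.25 to 0.067 for Srxn1, from -0.44 to 0.10 for Mt3 and from -0.017 to 0.19 for Hmox2. They ran in E2-KO vs E1-KO from -0.0061 to 0.18 for Hmox1, from -0.16 to 0.12 for Gclm and from -0.10 to 0.089 for Txnrd1. They ran in E3-KO vs E1-KO from -0.13 to 0.15 for Txnrd1. They ran in E3-KO vs E2-KO from -0.060 to 0.25 for Mt1, from -0.51 (limma-trend adjusted p = 0.0344) to 0.0011 for Mt2, from -0.13 to 0.16 for Txnrd1 and from -0.12 to 0.19 for Srxn1.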
